A study of Rattus norvegicus with 56 samples.

Results

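The vacuolar proton pump (V-ATPase) was followed through 10 of its subunit genes, chosen by name: Atp6v1b1, Atp6v1b2, Atp6v1c1, Atp6v1c2, Atp6v1g1, Atp6v1g2 and Atp6v1g3 of the V1 sector, and Atp6v0c, Atp6v0d1 and Atp6v0d2 of the V0 sector. They were located by symbol in the 30 min expression table and carried by Ensembl identifier to the 3 h table, so they are 10 of the 32883 genes in each table. Tubule segments were dissected from kidneys of Sprague Dawley rats, all male and weighing 120 to 160 g; no age is given in the labels. In the UUO (unilateral ureteral obstruction) groups the left ureter was tied off with silk close to the renal pelvis, and in the sham groups the same operation was done without the ligature. One segment was the collecting duct of the cortex (CCD) and the other the thick ascending limb of the cortex (cTAL), and each was collected 30 min or 3 h after surgery. There were thus 8 groups of 4 numbered replicates, each number standing for 2 CCD libraries or 1 cTAL library. Values are in TPM, transcript abundances scaled to a fixed total and for gene length, which can be compared between genes of a library but carry no sequencing depth. Levels are not compared between times, because each time has a table of its own.

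The pump has a V1 sector outside the membrane, which hydrolyses ATP, and a V0 sector in the membrane, which passes protons. Every cell uses it to acidify lysosomes and endosomes, with subunits made from broadly expressed genes. Intercalated cells of the collecting duct also place it in the plasma membrane to secrete acid or base, and there several subunits come from kidney-specific genes. In humans, loss of the B1 subunit causes distal renal tubular acidosis. By textbook class, Atp6v1b1 (B1), Atp6v1c2 (C2), Atp6v1g3 (G3) and Atp6v0d2 (d2) are the 4 kidney-specific isoforms here, although some are used in other specialised cells as well, such as d2 in osteoclasts. Atp6v1b2 (B2), Atp6v1c1 (C1), Atp6v1g1 (G1), Atp6v0d1 (d1) and Atp6v0c (c) are the 5 broadly expressed ones, and Atp6v1g2 (G2) is known as the neuronal G isoform.

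The segments matched their labels. The summed level of 6 thick limb markers was 41475 to 70694 TPM in sham cTAL and 61.2 to 505 TPM in sham CCD at 30 min. The summed level of 8 principal cell markers was 7496 to 12315 TPM in sham CCD and 56.7 to 113.5 TPM in sham cTAL at that time. The 8 intercalated cell markers, Foxi1, Slc4a1, Slc26a4, Slc4a9, Insrr, Hmx2, Aqp6 and Dmrt2, summed to 1870 to 2735 TPM in sham CCD and 0.35 to 2.31 TPM in sham cTAL. CCD therefore carried RNA of intercalated and principal cells, and in such bulk samples fewer cells of a type and less RNA per cell cannot be told apart. At 3 h, 3 CCD libraries held over 5000 TPM of the thick limb gene Umod. They were 1 library each of sham replicates 1 and 3, with 6941 and 7957 TPM, and 1 of UUO replicate 4, with 18235 TPM. In cTAL at 3 h, sham replicate 1 held 361 TPM of the principal cell water channel Aqp2 against 0.34 to 4.34 TPM in the other sham replicates.

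Promoter sequences are shown for 4 members that the results turn on: G1 and G3, a broadly expressed and a kidney-specific isoform of the same subunit, B1, which cTAL also expressed, and d1, which fell in CCD after ligation. Each run is the 250 bases before the start site that RefSeq gives for the gene in the GRCr8 assembly, written 5′ to 3′ on the strand of the gene. The windows are chr5:81976709-81976958 on the plus strand, chr13:52362082-52362331 on the plus strand, chr4:117781194-117781443 on the plus strand and chr19:50357249-50357498 on the minus strand. Capitals mark motif matches.
Atp6v1g1: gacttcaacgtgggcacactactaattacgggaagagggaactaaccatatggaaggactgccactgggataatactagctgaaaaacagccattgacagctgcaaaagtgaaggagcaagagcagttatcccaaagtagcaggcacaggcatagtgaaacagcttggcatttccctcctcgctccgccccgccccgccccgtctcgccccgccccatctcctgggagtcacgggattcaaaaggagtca
Atp6v1g3: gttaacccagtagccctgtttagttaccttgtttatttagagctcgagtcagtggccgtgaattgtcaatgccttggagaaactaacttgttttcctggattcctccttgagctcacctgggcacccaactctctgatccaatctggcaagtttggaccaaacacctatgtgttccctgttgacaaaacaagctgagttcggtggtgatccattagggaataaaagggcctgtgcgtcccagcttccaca
Atp6v1b1: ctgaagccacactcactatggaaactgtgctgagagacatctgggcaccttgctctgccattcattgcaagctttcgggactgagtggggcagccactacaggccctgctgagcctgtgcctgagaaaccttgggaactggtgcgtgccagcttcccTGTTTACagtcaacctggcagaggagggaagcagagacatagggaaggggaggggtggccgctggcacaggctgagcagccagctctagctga
Atp6v0d1: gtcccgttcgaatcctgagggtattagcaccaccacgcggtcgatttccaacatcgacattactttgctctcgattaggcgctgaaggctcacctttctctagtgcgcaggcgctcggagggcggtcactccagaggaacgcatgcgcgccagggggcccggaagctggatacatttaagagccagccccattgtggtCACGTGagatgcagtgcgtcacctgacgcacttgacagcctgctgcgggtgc

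Of the 10 members, 7 had such a window in the RefSeq table. The window of d1 held 20 CpG dinucleotides and that of G1 held 10, whereas those of B1 and G3 held 3 and 4; the median over 33469 windows was 5. The kidney-specific class was not uniform in this, because the window of Atp6v1c2 held 18 CpG. The remaining windows held 16 CpG for Atp6v0c and 11 for Atp6v1g2. Motifs were searched on both strands. CACGTG, the core letters of the CLEAR element bound by the MiT/TFE factors that drive lysosomal genes, began 52 bases before the start of d1 and was in none of the other 6 member windows; 5.59% of all windows held it. TGTTTAC, the forkhead core, began 93 bases before the start of B1 and was in none of the other 6, against 3.22% of all windows. A match describes letters and shows no binding.

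In sham animals the kidney-specific isoforms were far higher in CCD than in cTAL, while the broadly expressed ones were split: B2, C1 and G1 differed little between the segments, and Atp6v0c and d1 were 7.84-fold and 2.78-fold higher in CCD at 30 min, the former more than the kidney-specific B1, at 4.23-fold. At 30 min, 7 of the 10 members were higher in CCD and 1 was lower (limma on log2(TPM + 1) within numbered replicates, 4 against 4, adjusted p under 0.05), where 41.7% of 11648 genes tested were higher and 13.2% lower. At 3 h, 6 were higher and 2 lower, against 27.7% and 10.4% of 10521 genes. The median log2 difference of the 4 kidney-specific isoforms was 4.91 at 30 min and 3.91 at 3 h, that of the 5 broadly expressed ones 0.27 and 0.21, and that of all genes tested 0.30 at both times. This overall median moved to 0.00 at 30 min and 0.02 at 3 h when the replicates were rescaled by median of ratios, with 3104 genes higher and 2739 lower at 30 min in place of 4859 and 1541, and 1574 higher and 1759 lower at 3 h in place of 2916 and 1099. All member values below are therefore to be read against that shift.

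**Figure D1:**
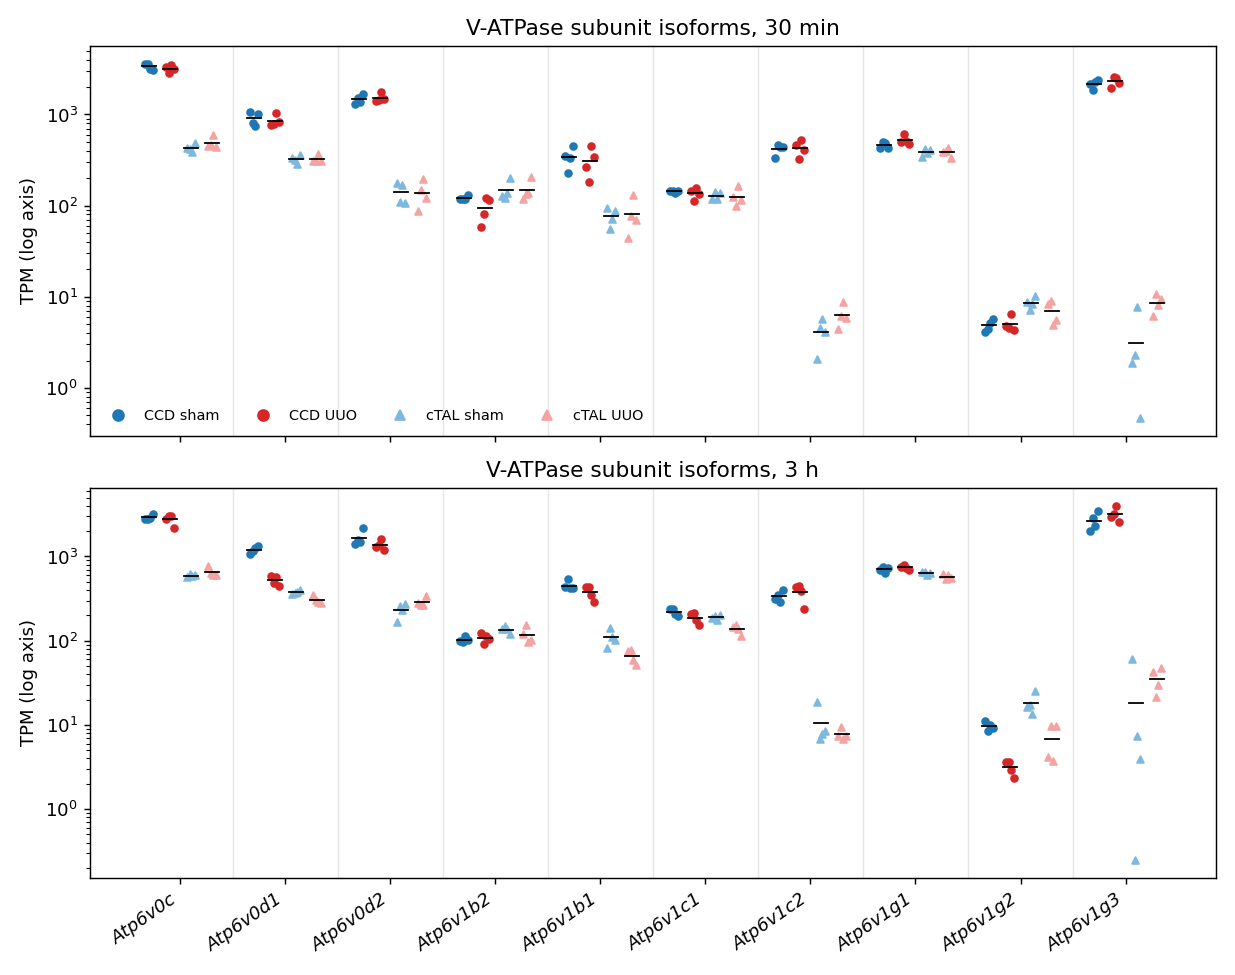
TPM of the 10 members on a log axis at 30 min (top) and 3 h (bottom), with 1 point per replicate and a bar at the mean of 4 replicates. Circles are CCD and triangles cTAL; blue shades are sham and red shades UUO. Atp6v1c2 and Atp6v1g3 are separated between the segments in every replicate, whereas Atp6v1b2, Atp6v1c1 and Atp6v1g1 lie close together, and Atp6v0d1 and Atp6v1g2 of CCD drop in the 3 h UUO group.

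The G subunit is part of the peripheral stalks that hold V1 in place. G3 stood at 2167, 1844, 2287 and 2369 TPM in the sham CCD replicates at 30 min and at 1.86, 2.31, 7.80 and 0.47 TPM in the sham cTAL replicates with the same numbers. The segments did not overlap, and G3 had the widest gap of the 10 members, a log2 difference of 9.33 (SE 0.37, limma adjusted p = 4.04e-06). At 3 h it stood at 2030 to 3457 TPM in CCD against 0.25 to 61.05 TPM in cTAL (log2 difference 8.415, SE 0.88, limma adjusted p = 0.000828). The high cTAL value of 61.05 TPM was that of sham replicate 1, the replicate with 361 TPM of Aqp2.

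G1 was abundant in both segments, at 461 ± 36.1 TPM (CCD) and 383 ± 33.1 TPM (cTAL) in sham animals at 30 min (SD, n = 4). Its log2 difference of 0.27 (SE 0.08, limma adjusted p = 0.0221) was about the median of all genes and turned to -0.07 after median-of-ratios rescaling and to -0.03 after quantile normalization. It also missed the threshold when sham replicate 1, 2 or 3 was left out (adjusted p = 0.0656 to 0.0895) and at 3 h (log2 difference 0.135, adjusted p = 0.167). G2 was the lowest G isoform of CCD and ran the other way, 4.86 ± 0.74 TPM in CCD against 8.655 ± 1.262 TPM in cTAL at 30 min. Its log2 difference was -0.725 (SE 0.145, limma adjusted p = 0.00486) at 30 min and -0.82 (SE 0.215, adjusted p = 0.0253) at 3 h, where it was lost without sham replicate 2, 3 or 4 (adjusted p = 0.0514 to 0.0961). G3 made up 82.2 ± 2.5% of the summed G subunit TPM in sham CCD and 0.80 ± 0.83% in sham cTAL at 30 min.

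The C subunit links the peripheral stalks and is released when V1 comes off V0. C2 stood at 335.5, 460.1, 438 and 443 TPM in sham CCD and at 2.06, 4.54, 5.77 and 4.08 TPM in sham cTAL at 30 min, with a log2 difference of 6.41 (SE 0.14, limma adjusted p = 4.18e-07). At 3 h the ranges were 292 to 405 TPM and 6.72 to 18.6 TPM, the last again sham replicate 1 (log2 difference 4.99, SE 0.25, limma adjusted p = 8.41e-05). C1 had nearly the same level in both segments, 143 ± 3.2 TPM and 129 ± 13.5 TPM at 30 min, and its log2 differences of 0.15 and 0.21 missed the threshold (limma adjusted p = 0.177 and 0.121). C2 was thus 74.3 ± 2.9% of the C subunit TPM in CCD and 3.09 ± 1.22% in cTAL.

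The B subunit forms the V1 head together with the catalytic A subunit. B1 stood at 350.0, 229.5, 333 and 456 TPM in sham CCD and at 93.4, 56.1, 71.6 and 87.7 TPM in sham cTAL at 30 min. The groups did not overlap, and the log2 difference was 2.08 (SE 0.11, limma adjusted p = 1.19e-05) at 30 min and 2.04 (SE 0.11, adjusted p = 8.46e-05) at 3 h. B1 was unlike C2 and G3 in that cTAL kept a sizeable level: its share of B subunit TPM was 73.1 ± 4.9% in CCD and 34.5 ± 5.3% in cTAL at 30 min, and 81.3 ± 2.5% and 44.3 ± 4.9% at 3 h. The level of B2 at 30 min was 121 ± 7.2 TPM in CCD against 148 ± 36.25 TPM in cTAL. Its log2 difference of -0.26 was not called at 30 min (limma adjusted p = 0.0847) but was -0.59 (adjusted p = 0.00542) after median-of-ratios rescaling. At 3 h it was -0.405 (SE 0.10, adjusted p = 0.0224), lost without sham replicate 1, 2 or 3 (adjusted p = 0.0677 to 0.0971).

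The d subunit couples the central stalk to the membrane ring. d2 stood at 1303, 1528, 1387 and 1689 TPM in sham CCD and at 177, 109, 169 and 108 TPM in sham cTAL at 30 min, a log2 difference of 3.41 (SE 0.19, limma adjusted p = 1.73e-05); at 3 h the difference was 2.84 (SE 0.10, adjusted p = 3.62e-05). It stayed above 100 TPM in every sham cTAL replicate at both times, where B1 ranged from 56.1 to 93.4 TPM at 30 min and from 82.85 to 142.5 TPM at 3 h. d2 was 62.0 ± 4.9% of the d subunit TPM in CCD and 30.2 ± 6.8% in cTAL at 30 min. d1, its broadly expressed counterpart, was also higher in CCD, with 744 to 1066 TPM against 285 to 357 TPM in cTAL at 30 min (log2 difference 1.48, SE 0.08, limma adjusted p = 1.64e-05) and a log2 difference of 1.67 (SE 0.07, adjusted p = 4.74e-05) at 3 h. The c subunit builds the proton-carrying ring, with several copies in each pump. Its gene had the highest mean level of the 10 in sham samples of both segments at 30 min. In sham cTAL at 3 h the mean of G1 was higher, 636 TPM against 593 TPM. Atp6v0c stood at 3093 to 3610 TPM in sham CCD and 387 to 483 TPM in sham cTAL at 30 min, and its log2 differences were 2.97 (SE 0.09, limma adjusted p = 1.5e-06) and 2.29 (SE 0.065, adjusted p = 1.97e-05).

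The order of levels within sham CCD at 30 min was Atp6v0c, G3, d2, d1, G1, C2, B1, C1, B2 and G2. The replicate ranges of neighbours in that order overlapped for G1 with C2 and for C2 with B1, and for no other pair. In sham cTAL the order was Atp6v0c, G1, d1, B2, d2, C1, B1, G2, C2 and G3, with overlap of the first with the second, of G1 with d1, of B2 with d2, of d2 with C1 and of C2 with G3. Another kidney isoform outside the 10, Atp6v0a4 (a4), lay with B1 and d2: it stood at 579.9 ± 97.3 TPM in sham CCD and 118 ± 40.9 TPM in sham cTAL at 30 min (log2 difference 2.30, limma adjusted p = 8.02e-05). Foxi1, the forkhead factor required for intercalated cells in mice, was at 0 to 0.32 TPM in those cTAL replicates and at 301 to 414.5 TPM in CCD. The part of intercalated cells in the B1, d2 and a4 levels of cTAL was not tested; at 3 h the summed intercalated cell markers of sham cTAL reached 21.2 TPM, in replicate 1.

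**Figure D2:**
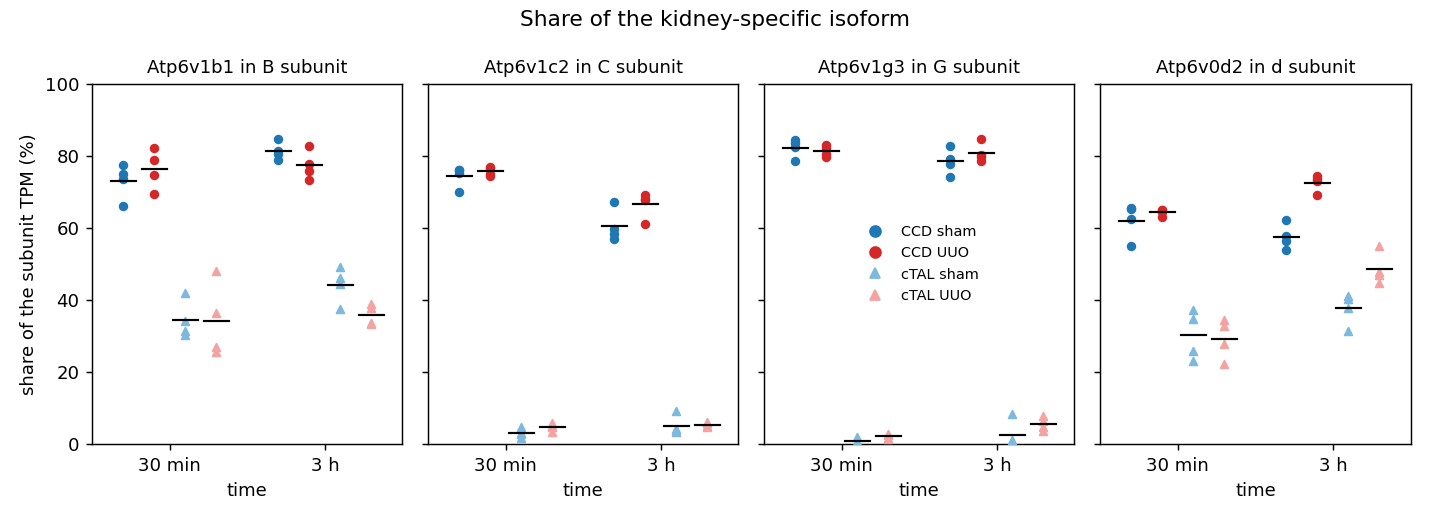
Share of the kidney-specific isoform in the summed TPM of its subunit, in percent, with 1 point per replicate and a bar at the mean of 4 replicates, for CCD (circles) and cTAL (triangles) in sham (blue shades) and UUO (red shades). Shares of Atp6v1c2 and Atp6v1g3 in cTAL stay below 10%, those of Atp6v1b1 and Atp6v0d2 in cTAL lie between 22.2% and 54.9%, and the Atp6v0d2 share is higher in UUO than in sham at 3 h in both segments.

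At 30 min after ligation no member was called in either segment by limma, and few genes were called at all: 0.0264% of 11369 genes in CCD and 0.0091% of 10993 in cTAL. At an unadjusted p under 0.05 there were 0 members in CCD, where 1789 genes passed, and 1 in cTAL, where 250 passed. That member was G3 of cTAL, at 6.10, 10.9, 8.05 and 9.42 TPM after UUO and 1.86, 2.31, 7.80 and 0.47 TPM in sham (log2 change 1.505, SE 0.48, unadjusted p = 0.0113 and adjusted p = 1 by limma). Only sham replicate 3 reached into the UUO range. In the same cTAL groups the summed intercalated cell markers were 3.11 to 8.99 TPM after UUO and 0.35 to 2.31 TPM in sham, and the summed principal cell markers 84.1 to 118 TPM and 56.7 to 113.5 TPM; their part in the G3 value was not tested. The largest shift of CCD was in B2, with 58.15, 80.4, 122 and 115 TPM after UUO against 117 to 132 TPM in sham (log2 change -0.515, SE 0.25, limma adjusted p = 0.336). The 2 libraries of UUO replicate 2 held 130.8 and 29.95 TPM of B2, and those of UUO replicate 1 held 66.2 and 50.1 TPM. The isoform shares of CCD overlapped between sham and UUO for all 4 subunits at this time.

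At 3 h, d1 and G2 fell in CCD and the other 8 members were not called. Of 10530 genes tested in that comparison, 8.04% were lower and 5% higher by the same rule, and 2 of 10 is a small count to set against that share. The median log2 change was -0.17 over the 10 members and -0.14 over all genes. After median-of-ratios rescaling the median of all genes was -0.01, with 701 genes higher and 455 lower in place of 526 and 847, and the same number of members, 2, was called.

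d1 fell from 1081, 1155.5, 1271 and 1327 TPM in the sham CCD replicates to 584, 479.8, 578 and 442 TPM after UUO. The highest UUO replicate was below the lowest sham replicate by a wide margin, and the log2 change was -1.22 (SE 0.115, limma adjusted p = 0.00156), a 2.33-fold drop. The call was kept in all 8 fits that left out a replicate and in all 10 other settings, with log2 changes of -1.30 to -1.07. Its kidney-specific partner d2 was at 1402 to 2173 TPM in sham and 1191 to 1601 TPM after UUO, with overlapping replicates and a log2 change of -0.27 (SE 0.15, adjusted p = 0.248). The summed d subunit TPM was 2868 ± 439 in sham and 1890 ± 224 after UUO, and the share of d2 in it was 56.5%, 57.7%, 53.9% and 62.1% in sham against 69.0%, 74.3%, 73.5% and 73.0% after UUO. The d2 share of CCD thus did not overlap between the groups.

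G2 fell from 11.04, 8.47, 9.965 and 9.125 TPM to 3.665, 3.675, 2.925 and 2.315 TPM in CCD at 3 h, again without overlap; 15% of all genes tested were lower without overlap in this comparison. The log2 change was -1.49 (SE 0.18, limma adjusted p = 0.00315), a 2.81-fold drop on the log2(TPM + 1) scale, and it too was kept in all 8 fits without a replicate and all 10 other settings, with log2 changes of -1.84 with a pseudocount of 0.1 to -0.87 with a pseudocount of 5. The 2 libraries of a number differed by a median ratio of 1.38 and up to 11.5, the highest of the 10 at 3 h, with 6.76 and 0.59 TPM in UUO replicate 2 and 5.45 and 1.88 TPM in UUO replicate 1; the highest single UUO library, at 6.76 TPM, was below the lowest sham library, at 7.20 TPM. G2 was the least abundant member of CCD in both groups, and the summed G subunit TPM was 3369 ± 667 in sham and 3928 ± 641 after UUO.

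**Figure D3:**
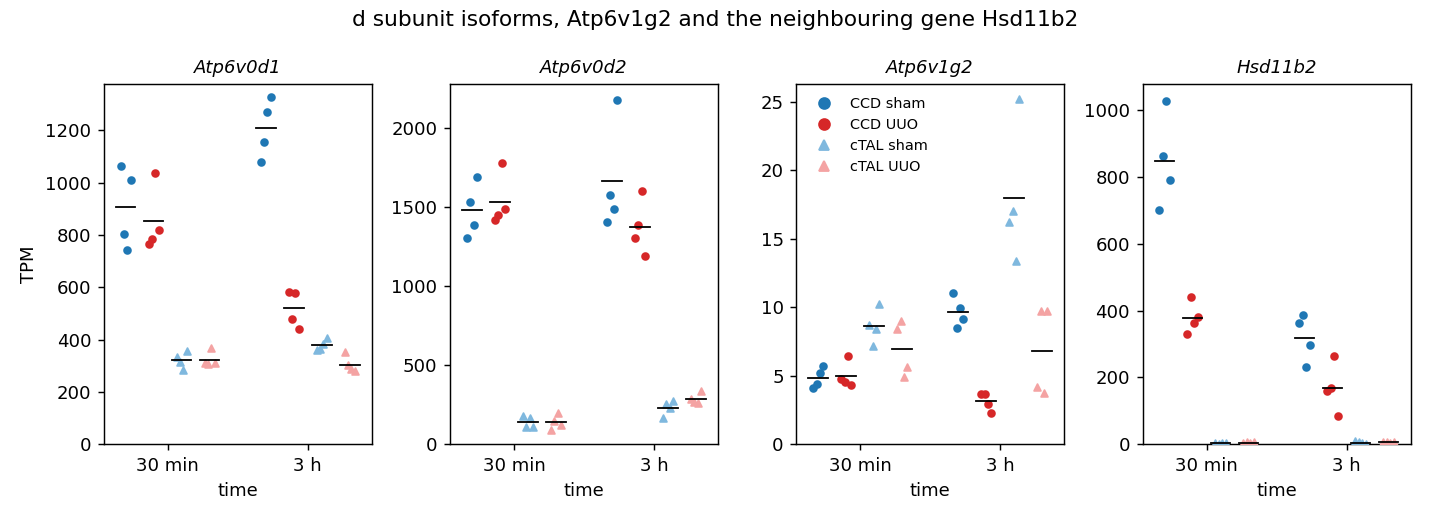
TPM of Atp6v0d1, Atp6v0d2, Atp6v1g2 and Hsd11b2 by replicate, from 0, with bars at the mean of 4 replicates, for CCD (circles) and cTAL (triangles) in sham (blue shades) and UUO (red shades). Atp6v0d1 and Atp6v1g2 of CCD are separated at 3 h and overlap at 30 min, and Atp6v0d2 overlaps at both times. Hsd11b2 of CCD is already separated at 30 min by these replicate values, though not by single library.

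The kidney-specific isoforms of CCD showed no called change at 3 h. G3 was at 2658 ± 639 TPM in sham and 3184 ± 626 TPM after UUO (log2 change 0.27, SE 0.19, limma adjusted p = 0.376). C2 was at 341 ± 49.3 and 379 ± 96.25 TPM (log2 change 0.12, SE 0.20, adjusted p = 0.726), and B1 at 449.9 ± 56.0 and 377 ± 69.5 TPM (log2 change -0.275, SE 0.15, adjusted p = 0.238). Among the broadly expressed ones, the log2 changes were -0.25 for C1 (SE 0.12, adjusted p = 0.192), 0.08 for G1 (SE 0.08, adjusted p = 0.536), 0.07 for B2 (SE 0.11, adjusted p = 0.707) and -0.09 for Atp6v0c (SE 0.12, adjusted p = 0.632).

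Cell type markers moved in the same CCD comparison. Of 8 intercalated cell markers none was called, with a summed level of 1732 to 2577 TPM in sham and 1075.5 to 2317 TPM after UUO; Foxi1 itself was at 388 ± 25.9 and 376 ± 45.0 TPM. Of 8 principal cell markers, 5 were lower, and their sum was 15907 to 18653 TPM in sham and 5503 to 10052 TPM after UUO. Higher sums after UUO were those of proximal tubule markers, with 3 of 6 tested called and 179 to 976 TPM against 69.1 to 251 TPM, and of macrophage markers, with 3 of 5 called and 63.6 to 94.0 TPM against 19.9 to 53.9 TPM, where Cd163 was at 0 throughout. All 4 red blood cell loci tested were higher, with sums of 1494 to 7895 TPM against 25.4 to 1187 TPM. Of 6 thick limb markers, 5 were tested and none was called. Their sum was 92.9 to 4395 TPM in sham and 82.55 to 9860 TPM after UUO. In UUO replicate 4, 1 library held 18235 TPM of Umod. The part of these shifts in the d1 and G2 values was not tested.

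In cTAL at 3 h, limma called 3 members lower, G2, B1 and C1, where 7.64% of 10023 genes were lower and 4.06% higher. G2 was at 16.25, 17.05, 13.4 and 25.2 TPM in sham and 4.20, 9.71, 3.71 and 9.74 TPM after UUO (log2 change -1.34, SE 0.35, adjusted p = 0.0359). B1 was at 82.85, 142.5, 109.8 and 102 TPM in sham and 75.25, 77.1, 58.4 and 50.9 TPM after UUO (log2 change -0.725, SE 0.20, adjusted p = 0.0432). C1 was at 184, 195, 179 and 201 TPM in sham and 144, 154, 137 and 112 TPM after UUO (log2 change -0.48, SE 0.13, adjusted p = 0.039). None of the 3 overlapped between the groups, which 14.1% of all genes tested matched in the lower direction.

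These cTAL calls lay close to the threshold. B1 stayed called only without sham replicate 1 or UUO replicate 1, C1 only without UUO replicate 2, and G2 only without UUO replicate 2 or 4; over all 8 such fits the adjusted p ran from 0.0389 to 0.116, from 0.0445 to 0.104 and from 0.0408 to 0.0844. After median-of-ratios rescaling, which moved the median change of all genes from -0.12 to 0.01 and the split from 407 higher and 766 lower to 492 and 414, 1 member was still called. Marker sums differed here too. Of 6 thick limb markers, 1 was called lower, Cldn10 (log2 change -0.49, adjusted p = 0.0184), and their sum was 35781 to 61100 TPM in sham and 30570 to 35377 TPM after UUO, without overlap. Of the macrophage markers 2 of 6 tested were lower, with sums of 125 to 316 TPM and 51.7 to 159.9 TPM, and of the endothelial markers 2 of 3, with 49.8 to 195 TPM and 18.1 to 44.3 TPM. Of the proximal tubule markers 3 of 6 were higher, with sums of 6.74 to 178 TPM and 210.4 to 857 TPM. None of 4 red blood cell loci was called, with sums of 29.8 to 3161 TPM and 1834 to 11334 TPM. The part of these shifts in the member values was not tested.

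The other members of cTAL were not called at 3 h. d1 was at 359.8, 365, 382 and 405 TPM in sham and 351, 302, 287 and 278.5 TPM after UUO, without overlap (log2 change -0.315, SE 0.11, limma adjusted p = 0.084), and passed without UUO replicate 1 (adjusted p = 0.0483). d2 was at 165 to 274 TPM and 263 to 338.5 TPM (log2 change 0.33, SE 0.17, adjusted p = 0.22). The d2 share was 31.5%, 41.2%, 37.7% and 40.3% in sham and 44.6%, 47.0%, 47.8% and 54.9% after UUO, so it did not overlap between the groups in cTAL either. The shares of B1, C2 and G3 overlapped between sham and UUO at 3 h in both segments. G3 was at 61.05, 0.25, 7.48 and 3.93 TPM in sham and 42.0, 21.4, 30.05 and 48.0 TPM after UUO. Its log2 change of 2.205 (SE 0.94, adjusted p = 0.155) became 3.22 (adjusted p = 0.0202) without sham replicate 1, the replicate with high Aqp2. The summed intercalated cell markers were 0.31 to 21.2 TPM in sham and 1.84 to 14.5 TPM after UUO, and the part of other cells in the G3 value was not tested.

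**Figure D4:**
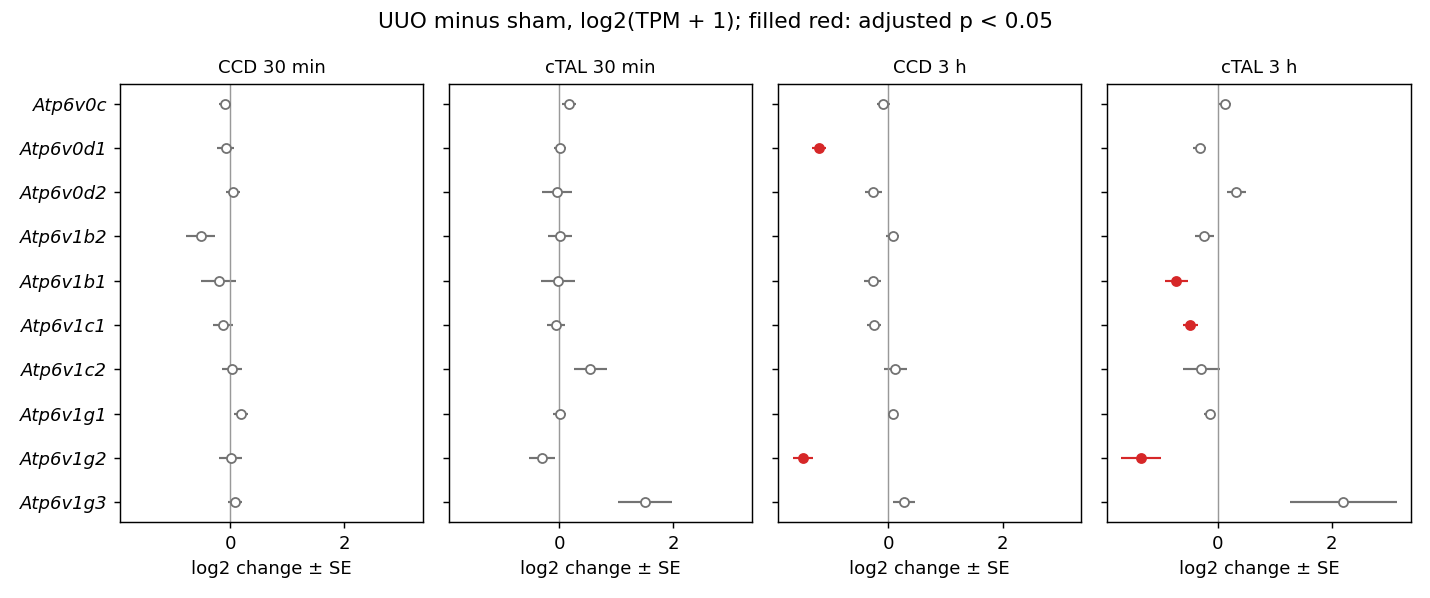
Log2 change (UUO minus sham) of each member on log2(TPM + 1), with the standard error from limma as the horizontal bar, in the 4 comparisons of 4 against 4 replicates. Filled red points have an adjusted p under 0.05: Atp6v0d1 and Atp6v1g2 in CCD at 3 h, and Atp6v1b1, Atp6v1c1 and Atp6v1g2 in cTAL at 3 h.

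The change of d1 differed between segments and between times. At 3 h its change in CCD minus its change in cTAL was -0.90 on the log2 scale (SE 0.11, limma adjusted p = 0.0098), and it was the only member called among the 10, with 0.55% of 11084 genes called in that direction. The call was kept in the 8 fits without a replicate and lost without the mean-variance trend (adjusted p = 0.0612). At 30 min 0 of 12075 genes, 0%, were called in this difference by limma, 1792 had an unadjusted p under 0.05, and the value for d1 was -0.09 (SE 0.11, adjusted p = 0.732). The 3 h response of CCD minus its 30 min response was -1.13 for d1 (SE 0.20, limma adjusted p = 0.0161) and -1.498 for G2 (SE 0.25, adjusted p = 0.0161), where 0.274% of 10203 genes were called lower. Both were lost when the second CCD library of each number was used alone (limma adjusted p = 0.106 and 0.219). Each time had a table of its own, so time cannot be told apart here from other differences between the 2 sets of libraries. The mitochondrial share of CCD libraries, for example, was 13.8% to 22.5% at 30 min and 4.83% to 8.12% at 3 h. In cTAL no member was called in the difference between times, against 2.81% of 9641 genes in either direction; 2 had an unadjusted p under 0.05, as did 1695 of all genes. For G2 the responses of the segments at 3 h did not differ detectably (-0.15, SE 0.43, adjusted p = 0.914).

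Neighbouring genes could share reads with some members, since the protocols do not state that these libraries keep strand. In GRCr8, d1 overlaps the lncRNA LOC134483348 and B2 overlaps the lncRNA LOC102554171, and neither lncRNA was found by that name in the tables. Hsd11b2, the enzyme that inactivates corticosterone in principal cells, lies next to d1 without overlap. It was at 702 to 1028 TPM in sham CCD and 331 to 439 TPM after UUO at 30 min (log2 change -0.91, SE 0.15, limma adjusted p = 0.181), and at 230.1 to 387 TPM and 84.7 to 263 TPM at 3 h (log2 change -0.98, SE 0.31, adjusted p = 0.0639). The sham and UUO ranges of Hsd11b2 did not overlap at 30 min, when those of d1 did. Between the 2 CCD libraries of a number at 30 min, Hsd11b2 differed by a median ratio of 1.82 and up to 4.30, and d1 by 1.05 and up to 1.25; by single library, Hsd11b2 was at 311.4 to 1668 TPM in sham and 318.4 to 508 TPM after UUO, which overlap. At 30 min library 1 of the sham numbers held 1092, 1198, 1668 and 1239 TPM of Hsd11b2, and library 2 held 311, 529, 388 and 345 TPM. The separation of the replicate values thus rested on library 1 of the sham numbers. The part of these neighbours in the d1 value was not tested. G2 overlaps Nfkbil1 in GRCr8; Nfkbil1 was at 8.32 ± 1.64 TPM in sham CCD and 5.475 ± 1.875 TPM after UUO at 3 h (log2 change -0.57, SE 0.24, limma adjusted p = 0.147), and its part in the G2 value was not tested. C2 overlaps Nol10, and near copies of Atp6v0c and Atp6v1g1 are annotated in GRCr8 that had no entry of their own in the tables, so these levels are less certain.

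The other subunits of the pump were mostly higher in CCD than in cTAL, and 1 of them changed with UUO. Of all genes tested, 41.7% were higher in sham CCD at 30 min and 27.7% at 3 h. Of 15 lysosomal genes, 14 were higher in sham CCD at 30 min and 12 at 3 h. A higher level in CCD was thus not particular to the pump. All 5 other V1 subunits tested were higher in sham CCD at both times (limma), for example the catalytic Atp6v1a (A), with log2 differences of 1.05 (adjusted p = 0.000395) and 1.89 (adjusted p = 0.00113), and the stalk subunit Atp6v1e1 (E1), with 1.63 (adjusted p = 6.02e-06) and 1.44 (adjusted p = 7.71e-05). Of 6 other V0 subunits tested, 4 were higher at 30 min, among them Atp6v0e2 at 0.26, below the median of all genes, and 3 at 3 h; the broadly expressed a subunit Atp6v0a1 was not called, at 0.15 (adjusted p = 0.477) and 0.26 (adjusted p = 0.402). After UUO none of the 5 V1 subunits was called in any of the 4 comparisons. Of the V0 subunits, Atp6v0e2, the second e isoform, was lower at 3 h in CCD, from 103 ± 5.7 to 80.4 ± 8.3 TPM (log2 change -0.37, limma adjusted p = 0.0449), and in cTAL, from 113.5 ± 10.9 to 65.7 ± 15.8 TPM (log2 change -0.81, adjusted p = 0.0269). Of all genes tested at 3 h, 8.04% were lower in CCD and 7.64% in cTAL, and 1 call is a small count to set against those shares. Of 15 accessory and assembly genes, none of the 11 tested in CCD or 10 tested in cTAL was called at 3 h.

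Among 6 transcription factors listed for the pump, limma called 1 lower and 1 higher in each segment at 3 h. Of all genes tested then, 8.04% were lower and 5% higher in CCD, and 7.64% lower and 4.06% higher in cTAL. The counts called in these short lists are small to set against those shares. Mitf, a MiT/TFE factor, fell from 24.9 ± 3.5 to 9.95 ± 2.72 TPM in CCD (log2 change -1.30, SE 0.20, adjusted p = 0.00762) and from 30.7 ± 10.6 to 12.5 ± 3.9 TPM in cTAL (log2 change -1.22, SE 0.31, adjusted p = 0.0349). Its relative Tfec rose from 0.83 ± 0.86 to 6.05 ± 3.24 TPM in CCD (log2 change 1.65, SE 0.46, adjusted p = 0.0451) and from 0.39 ± 0.47 to 3.35 ± 2.09 TPM in cTAL (log2 change 1.59, SE 0.385, adjusted p = 0.0284). The sham means of Tfec were below 1 TPM in both segments, so its changes start near the floor. Tfeb, Tfe3, Foxi1 and Tfcp2l1 were not called. Of 15 lysosomal genes, Npc1 and Ctsl were higher and Cln3 lower in CCD, with log2 changes of 0.95 (adjusted p = 0.0401), 0.50 (adjusted p = 0.0416) and -0.78 (adjusted p = 0.00719) by limma. In cTAL Ctsl was higher (0.71, adjusted p = 0.0368) and Cln3 lower (-0.90, adjusted p = 0.0227) among 14 tested. Of the other acid-base genes of intercalated cells, 11 were tested in CCD at 3 h and 5 in cTAL. The ammonia channel Rhbg was lower in CCD (log2 change -0.56, limma adjusted p = 0.0306), and the proton-potassium pump Atp12a was higher in cTAL (log2 change 1.72, adjusted p = 0.0231).

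Genes whose profile over the 8 groups was closest to each kidney-specific isoform were found by the root mean square difference of mean log2(TPM + 1), centred within each time. The genes compared had a mean of at least 5 TPM in sham CCD at both times, or at least 1 TPM for d2. Genes below that in sham CCD could therefore not appear. Over 7065 genes compared, the nearest to B1 were Tmsb4x, Acp6 and Ednrb, at 0.085, 0.103 and 0.109. For C2 they were Ccdc80, Lgals3 and Rab3b, at 0.145, 0.187 and 0.2395. For G3 they were Kcne1, Guca2a and Fxyd4, at 0.4445, 0.468 and 0.481. For d2, over 10260 genes, they were Vstm2a, C4bpb and Gipc2, at 0.101, 0.149 and 0.159. These distances describe 8 group means and mainly follow the difference between segments.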

How the data were processed

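RNA of microdissected rat CCD and cTAL was sequenced in 48 libraries, 24 at each time; 8 whole-kidney samples are not analysed here. Per the labels' protocols, cDNA came from a SMARTer V4 kit with PCR amplification and libraries from Nextera XT. The tools named in the submitters' processing notes are STAR 2.7.3 and RSEM 1.3.3, and the build is Rnor_6.0. The authors deposited gene-level TPM, in a table per time. TPM keep no read numbers, so depth is unknown and no counting interval is given; a library had 8744 to 11916 genes at 1 TPM or more at 30 min, and 9585 to 10750 at 3 h.

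Library pairs of a CCD number were averaged on log2(TPM + 1). Genes at 1 TPM or more in at least 4 of 8 replicates were tested with limma 3.58.1 (R 4.3.3, mean-variance trend). For responses compared between segments a gene had to pass in either segment, and for responses compared between times at both times. Genes were called at a Benjamini-Hochberg adjusted p under 0.05 over all genes tested. All 10 members passed the filter in every comparison. The fits were also run on simulated data with Gaussian noise. Such data follow the model by construction, so they cannot show whether its assumptions hold for these TPM. Figures used matplotlib 3.10.9. UUO was compared with sham without a block, CCD with cTAL within numbers, and responses between segments within numbers. Isoform shares and marker sums are descriptions without a test. Alternatives were other pseudocounts (0.1 and 5), no filter, rescaling, no trend, the replicate block, single CCD libraries, and leaving out replicates or libraries that stand apart.

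Same-numbered samples were checked for pairing through the correlation of their deviations from group means. For sham and UUO every correlation was over 0.1 only in CCD at 30 min (0.115 to 0.229), where the block left 0 members called, as without it. For CCD and cTAL of the same number and arm the lowest was 0.271 and 0.12 at 30 min and 0.062 and 0.088 at 3 h, for sham and UUO. The labels do not say which libraries share an animal, so p-values measure the spread between these numbered samples.

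The members, the gene lists and the tests were chosen with earlier results of these data known. All 10 members were named in every comparison, with up to 4 called genes of each other list. The a subunit gene Atp6v0a2 and the marker Pecam1 were not found under those symbols and are not used here. Promoter windows came from RefSeq, GRCr8.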

Additional observations from a re-analysis of the deposited data

Results flagged for a closer look

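Replicates that stood apart from the other 3 of their group were looked for in 80 groups of 4 (10 members in 8 groups), by a gap relative to the range of the group that chance exceeds in about 1 in 20 groups; 7 were found. All were the highest of their group. In cTAL after UUO at 30 min, replicate 3 had 369.1 TPM of Atp6v0d1 against 305 to 310.5 TPM in the others, and 589.1 TPM of Atp6v0c against 439.9 to 458.1 TPM. In cTAL after UUO at 3 h, replicate 1 had 761.9 TPM of Atp6v0c against 607.5 to 632.1 TPM. In CCD sham, replicate 2 at 3 h had 533.3 TPM of Atp6v1b1 against 417.7 to 430.7 TPM, and replicate 4 at 30 min had 132.2 TPM of Atp6v1b2 against 117 to 118.9 TPM. In cTAL sham at 3 h, replicate 1 had 18.6 TPM of Atp6v1c2 against 6.72 to 8.52 TPM, and 61.05 TPM of Atp6v1g3 against 0.25 to 7.48 TPM; the same replicate had 361 TPM of Aqp2.

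A difference between groups was called 3 times. The 3 h change of Atp6v0d1 was lower in CCD than in cTAL by -0.904 on the log2 scale (limma adjusted p = 0.0098). The CCD change at 3 h minus that at 30 min was -1.134 for Atp6v0d1 and -1.498 for Atp6v1g2 (limma adjusted p = 0.0161 for each). This difference compares times that each had a table of their own.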

How the results depend on the processing

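Of 24 called results on single members, 344 of 395 refits stayed past the threshold and 2 turned in sign: the Atp6v1g1 difference between sham segments at 30 min, -0.068 after median-of-ratios rescaling and -0.031 after quantile normalization. Of 76 results not called, 6 of 1465 refits passed and 100 turned in sign. The number of members called after UUO in CCD stayed at 0 at 30 min and 2 at 3 h in every alternative. In cTAL at 3 h it was 3, and it became 0 without the filter, 1 after median-of-ratios rescaling, 1 without the trend, 1 with the replicate block, and 0 to 2 when a replicate was left out. The response difference between segments at 30 min went from 0 to between 0 and 1 when a replicate was left out, the 1 being Atp6v1b2 without UUO replicate 3 (adjusted p = 0.0493); at 3 h it went from 1 to 0 without the trend. The CCD difference between times went from 2 to 0 with library 2 of each number alone. The causes were not tested. Without the filter more genes entered the fit, 16506 in place of 10023 in cTAL at 3 h. The sham difference between segments held 7 to 8 members at 30 min and 6 to 8 at 3 h. Without the filter 852 genes were called in place of 1373 in CCD at 3 h and 760 in place of 1173 in cTAL.

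The replicate block changed the count of all genes called at 3 h from 1373 to 770 in CCD and from 1173 to 580 in cTAL; there the numbers showed no pairing of sham with UUO (correlations of -0.218 to 0.12 and -0.116 to 0.05), and 0 and 0 of 4 samples correlated best with their own number. Without depth, the precision of low members such as Atp6v1g2, and of Atp6v1c2 and Atp6v1g3 in cTAL, rests on the 4 replicates alone.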

Other observations

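The 2 CCD libraries of a number differed unevenly between members. At 30 min the ratio of the larger to the smaller library had a median of 1.60 and a maximum of 2.67 for Atp6v1b1, against 1.05 and 1.25 for Atp6v0d1; at 3 h these were 1.24 and 1.46 against 1.095 and 1.29. At 3 h the highest ratio was that of Atp6v1g2, with a median of 1.38 and a maximum of 11.5. At 30 min the highest were 4.37 for Atp6v1b2 and 3.27 for Atp6v1c1, although their medians were 1.07 and 1.05. Both of these maxima, and those of Atp6v1b1 and Atp6v0d1 at 30 min, came from a single pair, UUO replicate 2. In library 2 of that pair 8744 genes reached 1 TPM, the low end of the 30 min range, against 10831 in library 1. For Atp6v1b2 and Atp6v1c1 the 30 min maxima therefore describe that pair rather than a spread seen in every number. Atp6v1b1 also differed in other numbers, with ratios of 2.055 in sham replicate 1, 1.847 in UUO replicate 4 and 1.672 in sham replicate 3. Its lowest ratio was 1.062, in sham replicate 2. The averaged CCD values do not show this spread within numbers. Isoform shares were recomputed 160 times, from single CCD libraries or without 1 replicate. Leaving out 1 of 4 replicates cannot move a mean by more than 1 SD, so only the single-library values could do so. Among these, the share of Atp6v1c2 in CCD after UUO at 30 min was the only one that did. It was 75.7% from both libraries and 77.7% from library 2 alone.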
